A study of Cricetiscus sungorus with 216 samples.

Results

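Appetite in mammals is set in part by a circuit of the arcuate nucleus, at the base of the hypothalamus. Neurons that release neuropeptide Y (Npy) and agouti-related peptide (Agrp) drive feeding, and neurons that release pro-opiomelanocortin (Pomc) products and cocaine- and amphetamine-regulated transcript (Cartpt) restrain it. The Pomc product alpha-MSH activates the melanocortin receptors Mc3r and Mc4r, Agrp blocks them, leptin reports fat stores to the circuit through Lepr, and Npy acts in part through Npy1r. These 8 genes were followed in Djungarian hamsters (Phodopus sungorus, labelled Cricetiscus sungorus) that went through the seasonal cycle evoked by short days. The genes were chosen by name, and a gene's value is the sum of its isoforms. They were 8 of 20156 gene symbols in the mediobasal hypothalamus (MBH), 8 of 21821 in the dorsomedial hypothalamus (DMH), 8 of 18960 in the paraventricular nucleus (PVN) and 6 of 22482 in the pituitary, where Mc3r and Mc4r were not analysed here.

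All animals were adult male hamsters of a laboratory colony with free access to food and no genetic manipulation. A reference group stayed in long photoperiod (LP, labelled LD), with 16 h of light and 8 h of darkness, and 8 groups were moved to short photoperiod (SP, labelled SD), with 8 h of light and 16 h of darkness, for 4, 8, 12, 16, 20, 24, 28 or 32 weeks. Each group held 6 hamsters, and each tissue of each hamster gave 1 nanopore cDNA library, so that each of the 4 tissues had 54 libraries. The MBH, DMH and PVN were punched from brain sections, and a punch can differ in the nuclei it catches. The pituitary gland was extracted and frozen. In such bulk tissues, fewer cells of a type and less RNA per cell cannot be told apart. The comparisons asked whether the feeding circuit follows the time in SP.

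Library totals ran from 5996 to 13208364 counts in the MBH, from 149289 to 9084077 in the DMH, from 159 to 998247 in the PVN and from 29221 to 523547 in the pituitary. The total fell under 10000 counts in 1 MBH library and in 2 PVN libraries. No pair of libraries held identical values. In the MBH, Tshb, the beta subunit of thyrotropin that the pars tuberalis makes in long days, had a median of 488 CPM (counts scaled to library size, with the library size corrected by the trimmed mean of M-values, TMM) in LP and of 0 to 15.2 CPM in the SP groups. The listed arcuate markers (Ghrh, Kiss1, Tac2, Tbx3, Sox14, Gal, Th and Slc6a3) summed to a median of 71.1 CPM in the MBH and of 1.62 CPM in the DMH, where Ghrh and Kiss1 were not analysed here. The dorsomedial and lateral list (Ppp1r17, Grp, Npvf, Hcrt, Pmch and Cck) summed to 31.6 CPM in the MBH and 19.5 CPM in the DMH. For the PVN, the defining genes Avp, Oxt and Crh were not analysed here, so the label rests on Trh and Sim1 alone, of which 1 was read in at least 27 libraries. In the PVN libraries the dorsomedial and lateral list had a higher median sum than Trh and Sim1. The arcuate list was read there too, at a lower median sum. The part of neighbouring nuclei in the PVN values was not tested.

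Reads of these genes were assigned to near-identical isoforms. The 5 Pomc isoforms carried the same count in 53 of the 54 MBH libraries, and the 2 Agrp isoforms in 52 of the 53 in which Agrp was read. The 6 Npy1r isoforms did so in 30 of the 45 in which Npy1r was read. A summed Pomc value therefore counts a read up to 5 times, and a summed Npy1r value up to 6 times. A level of one gene was not compared with that of another, because neither the isoform counting nor transcript length allows it. With the single isoform of highest total in place of the sum, log2 differences between SP phases and LP in the MBH moved little for Pomc (−0.69 to −0.72 in induction) but much for Lepr (−1.66 to −0.23 in maintenance), and that of Npy1r between MBH and DMH moved from 3.97 to 2.49.

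Across the 9 groups, none of the feeding peptides or receptors passed the test in the MBH. With edgeR's quasi-likelihood F-test, 0 of 8 passed a false discovery rate (FDR) of 0.1, against 0.442% of all 20156 gene symbols, and all 8 had FDR = 1. The unadjusted p was below 0.05 for 0 of the 8 and for 1615 of all genes. The smallest p of the 8 was 0.152, for Cartpt. The same fit called 89 genes, and DESeq2 called 12 of all genes and 0 of the 8.

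Npy, the orexigenic peptide of the arcuate, was at a lowest, median and highest value of 45.2, 99.0 and 179 CPM in the 6 LP hamsters. Group means in SP lay between 77.4 CPM at 4 weeks and 128 CPM at 28 weeks, around the LP mean of 104 ± 53.7 CPM (SD, n = 6). At 28 weeks the 6 animals ranged from 47.8 to 296 CPM, with a median of 87.2 CPM. Every SP group overlapped LP, and the highest group mean was 1.65 times the lowest. When groups were ordered by mean, no 2 neighbours in the order differed by more than the smaller of their SDs. Sorting itself keeps steps between neighbours small, so these steps do not show that the groups are alike.

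Agrp, the antagonist of the melanocortin receptors made by the same neurons, had a mean of 51.5 ± 34.3 CPM in LP (lowest 18.8, median 42.1, highest 102 CPM; SD, n = 6). In SP its group means ran from 32.2 CPM at 12 weeks to 57.6 CPM at 28 weeks. All groups overlapped, and the spread within a group was wide beside the range of the means, which was 1.79 times from lowest to highest.

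**Figure D1:**
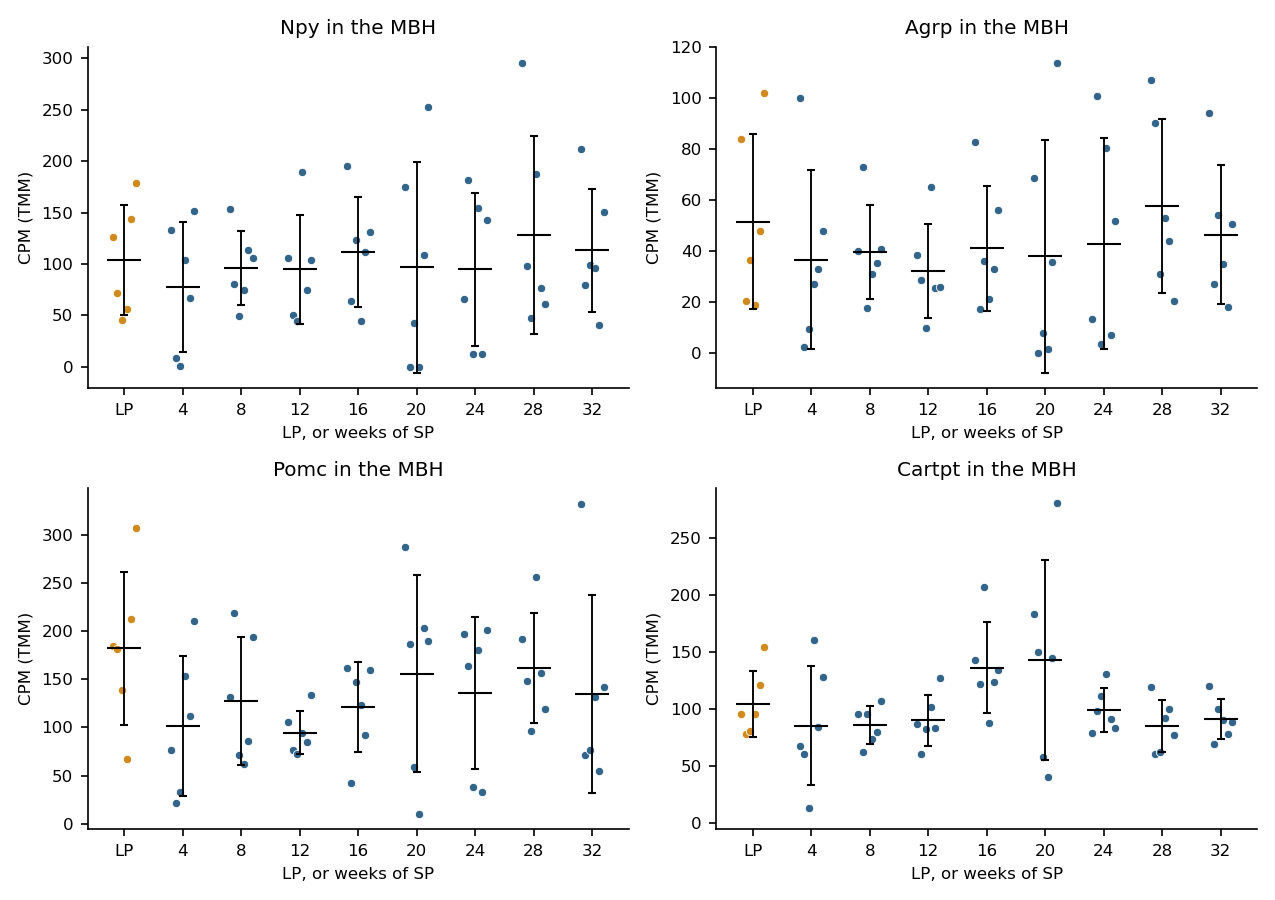
Npy, Agrp, Pomc and Cartpt in the mediobasal hypothalamus in CPM (TMM) for LP and for 4 to 32 weeks of SP; points are single hamsters, horizontal lines are means and bars are 1 SD (n = 6 per group). Every SP group overlaps LP for each of these peptides, and Npy ranges from 0 to 253 CPM within the 20-week group alone.

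Pomc, the precursor of alpha-MSH, had a higher mean in LP than in any SP group, without passing the test. In LP the lowest, median and highest animals stood at 67.2, 183 and 307 CPM, with a mean of 182 ± 79.5 CPM (SD, n = 6). The lowest SP mean was 94.7 ± 22.7 CPM at 12 weeks (lowest 72.8, median 89.5, highest 134 CPM), and the highest was at 28 weeks (lowest 96.4, highest 257 CPM). At 12 weeks the 6 animals overlapped only the lowest LP animal, and the exact 2-sided permutation test of mean CPM gave p = 0.026 before adjustment, where 6 against 6 cannot go below 0.00216. The fitted log2 difference at 12 weeks was −0.95 ± 0.498 (SE; edgeR, FDR = 0.995). When the single Pomc isoform with the highest total replaced the sum, Pomc and Cartpt passed the F-test (FDR = 0.0659 and 0.0625). In that fit the gene-wise test had 907000 degrees of freedom, against 52.8 with summed isoforms.

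Cartpt, an anorexigenic peptide, was the steadiest of the peptides. Its LP values were 78.0, 95.5 and 154 CPM (lowest, median and highest), and its median coefficient of variation was 26.6%, against 55.8% for Npy and 52.1% for Pomc. The highest means were 136 ± 39.6 CPM at 16 weeks and 143 ± 87.3 CPM at 20 weeks, and the others lay between 85.2 CPM at 28 weeks and the LP mean of 104 CPM. In the order of group means, the step from 16 weeks to LP was the only step larger than the smaller SD of the pair. At 20 weeks the animals ran from 40.2 to 280 CPM, and 280 CPM was the highest of all 54 libraries.

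Among the receptors, Mc4r, the main melanocortin receptor for satiety, was near the limit of detection. In LP it was read in 5 of 6 libraries with 12 counts in all (mean 1.01 CPM, highest 1.59 CPM). SP means ran from 0.166 CPM at 8 weeks, with 2 counts in all, to 0.622 CPM at 32 weeks, and every SP group overlapped LP. The exact permutation p was 0.0173 for week 8, 0.0303 for week 12, 0.0281 for week 24, and 0.039 for both week 16 and week 28. Mc3r, the other melanocortin receptor of the hypothalamus, had 71 counts over 34 of 54 libraries, with group means from 0.131 CPM at 20 weeks to 1.44 CPM at 8 weeks and 0.569 CPM in LP. Lepr, with 120 counts over 28 libraries, ran from 0.232 CPM at 16 weeks to 2.86 CPM at 4 weeks, with 2.42 CPM in LP. None of Mc4r, Mc3r and Lepr passed the test over the groups, and at these counts differences could go unseen.

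Npy1r, a receptor through which Npy acts, was better covered, with 1760 counts over 45 of 54 libraries when its 6 isoforms were summed. The isoform of highest total held 297 of them, so the sum overstates the number of reads. In LP it was read in all 6 animals, at 11.5, 27.7 and 37.7 CPM (lowest, median and highest). Means were lower in all 8 SP groups, from 8.84 CPM at 4 weeks to 19.9 CPM at 28 weeks, and the groups overlapped. The exact permutation p was 0.0216 for week 4, 0.0455 for week 8 and 0.039 for week 16.

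Over the 64 comparisons of the 8 genes and 8 SP weeks with LP, 9 had an exact permutation p below 0.05, all of them lower in SP, and all are set against the same 6 LP libraries. The share over all gene symbols and weeks was 2.9%. None of the 64 passed the FDR in edgeR, against 0.0093% of all genes and weeks, and in none did SP and LP animals fail to overlap. The pars tuberalis and pituitary markers other than Pomc (Tshb, Cga, Gh, Prl, Lhb, Fshb and Tbx19) summed to a median of 1360 CPM in LP and of 34.1 to 218 CPM in the SP groups. Vim, an intermediate filament gene of tanycytes and other glia, had a median of 171 CPM in LP and of 33.1 to 77.5 CPM in the SP groups. The part of these cells in the Pomc, Mc4r and Npy1r values was not tested.

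The weeks were also pooled into the phases the study describes, induction (4 and 8 weeks), maintenance (12, 16 and 20 weeks) and recovery (24, 28 and 32 weeks), to ask whether a phase differs from LP. No phase passed for any of the 8 genes in the MBH (0 of 8 in each), against 0.0447% of all genes for induction, 0.203% for maintenance, 0.169% for recovery and 0.00992% for recovery against maintenance. Npy had log2 differences of −0.27 ± 0.577, 0.02 ± 0.549 and 0.10 ± 0.552 (SE) in the 3 phases. For maintenance the 95% interval of Npy ran from 0.472 to 2.17 times LP, so changes within that range were not excluded. Pomc was at −0.69 ± 0.419, −0.59 ± 0.392 and −0.36 ± 0.396 (edgeR, FDR from 0.925 to 1).

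The largest phase differences were found among the receptors. Mc4r was at −1.67 ± 0.722 in induction (FDR = 0.831, edgeR) and −1.48 ± 0.651 in maintenance (FDR = 0.696). Lepr was at −1.66 ± 0.874 in maintenance (FDR = 0.849). Npy1r was at −1.31 in induction (95% interval −2.57 to −0.06, FDR = 0.869), −0.77 ± 0.586 in maintenance and −0.48 ± 0.588 in recovery. For Cartpt, recovery minus maintenance was −0.39 ± 0.191 on the log2 scale (FDR = 1, edgeR). None of these passed the threshold.

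**Figure D2:**
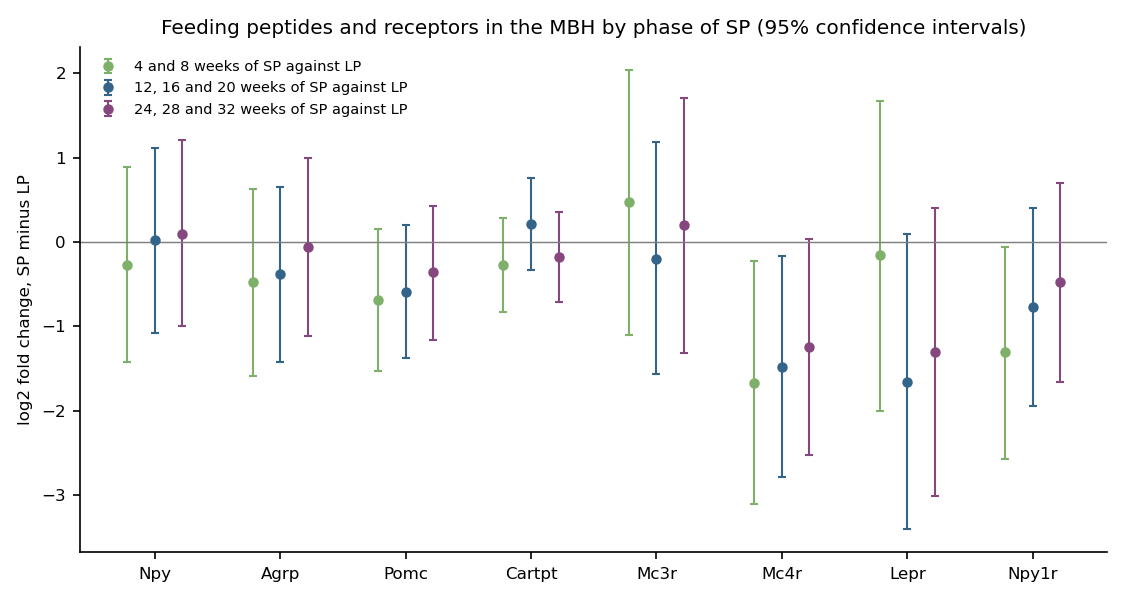
Fitted log2 fold change of SP against LP in the mediobasal hypothalamus for the 8 genes, for 4 and 8 weeks, for 12, 16 and 20 weeks, and for 24, 28 and 32 weeks of SP; bars are 95% confidence intervals of the edgeR fit. Intervals that lie wholly below 0 are those of Mc4r for the first and second phase (−1.67 and −1.48) and of Npy1r for the first (−1.31), and none passed the FDR.

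On summed isoforms, animals of 1 group differed more in Npy, Agrp, Pomc and Npy1r than in most genes of like abundance. The biological coefficient of variation, the square root of edgeR's dispersion, was 0.81 for Npy, against a median of 0.35 for the 1240 genes within 1 log2 CPM of it. It was 0.76 against 0.40 for Agrp, 0.59 against 0.33 for Pomc and 0.89 against 0.47 for Npy1r. Of these genes only Npy has a single isoform. For Agrp, Pomc and Npy1r the sum counts a read more than once. That can raise their dispersion and sets them beside genes of higher abundance, and the comparison was not repeated with a single isoform. Cartpt, at 0.38 against 0.35, was close to its neighbours.

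The animal-to-animal differences were shared between the peptides. Over the 54 MBH libraries, Npy and Agrp, which the same neurons make, gave Pearson's r = 0.889 and Spearman's rho = 0.882 on log2 CPM. The permutation p was 1e-05, the smallest that 100000 resamples can give, and 0.00014 after Benjamini-Hochberg adjustment over the 28 pairs of the 8 genes. Within groups, with each value taken from its group mean, r was 0.881, and after a regression on the library total it was 0.865. It was 0.827 without the 2 libraries farthest from the median of Npy. Of all 12038 gene symbols read in at least 27 libraries, Agrp ranked 1 for likeness to Npy and Npy ranked 1 for likeness to Agrp.

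Pomc and Cartpt belonged to the same pattern at a lower r. Npy and Pomc gave r = 0.670 (rho = 0.675, adjusted permutation p = 0.000187), Agrp and Pomc r = 0.654 (rho = 0.656, adjusted permutation p = 0.00014) and Pomc and Cartpt r = 0.559 (rho = 0.511, adjusted permutation p = 0.0007). Npy and Cartpt gave r = 0.532 (rho = 0.559, adjusted permutation p = 0.00101). Agrp and Cartpt gave r = 0.335, which missed the threshold of 0.05 (adjusted permutation p = 0.0505). In all, 8 of the 28 pairs passed, and 3 of these joined a peptide to Npy1r: r was 0.410 with Npy, 0.351 with Agrp and 0.341 with Cartpt, with rho between 0.175 and 0.25, none of which passed. No pair with Mc3r, Mc4r or Lepr passed, at counts where a weak relation could not be seen.

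Some libraries stood apart. In 6 MBH libraries Npy was at 12.8 CPM or less, while in the others it was at 40.9 CPM or more; these were replicates 2 and 4 at 20 weeks, 2 and 3 at 4 weeks, and 3 and 5 at 24 weeks. Replicate 2 at 20 weeks held 5996 counts in all. Replicate 4 at 20 weeks, with 1109761 counts, had 0 counts of Npy, Agrp at 1.39 CPM, Pomc at 10.4 CPM and Cartpt at 40.2 CPM, while the neuronal gene Snap25 stood at 349 CPM and Pmch, a marker of the lateral hypothalamus, at 38.1 CPM. Pmch reached 241 CPM and 158 CPM in replicates 3 and 5 at 24 weeks and 59.7 CPM in replicate 2 at 4 weeks. It stood at 0.942 CPM in replicate 3 at 4 weeks and lay between 0.802 and 11.6 CPM in the 6 libraries with most Npy. Pmch is a single gene of the dorsomedial and lateral list. Over the 54 libraries, Ppp1r17 (r = 0.225) and Npvf (0.042) of that list correlated positively with Npy. Grp (−0.037), Cck (−0.069), Hcrt (−0.126) and Pmch (−0.237) correlated negatively. Whether the low-Npy punches lay elsewhere was not tested. Without the 6 libraries with least Npy, which were left out after the values were seen, 48 remained: r was 0.819 for Npy and Agrp (rho = 0.834), 0.632 for Npy and Pomc and 0.446 for Pomc and Cartpt, and these pairs passed. The pairs of the 3 peptides with Npy1r no longer passed (r = 0.168 for Npy and Npy1r, adjusted permutation p = 0.589), and Agrp and Cartpt did (r = 0.366, adjusted permutation p = 0.0491).

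**Figure D3:**
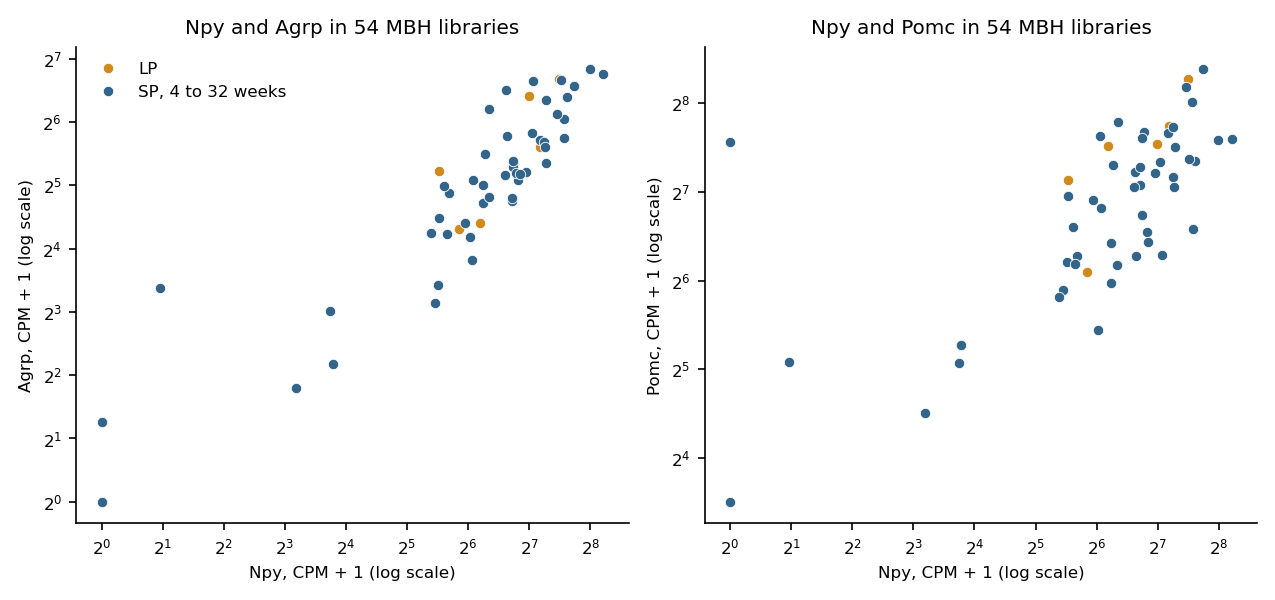
Agrp (left) and Pomc (right) against Npy in the 54 libraries of the mediobasal hypothalamus, as CPM + 1 on log axes; orange points are LP and blue points SP hamsters. Agrp follows Npy over the whole range (r = 0.889), LP animals lie among SP animals, and 6 SP libraries stand apart at low Npy.

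Markers of other cells and regions moved with these differences as follows, given as correlations of log2 CPM over the 54 libraries. Npy correlated positively with all 6 other arcuate markers read in at least 27 libraries (r from 0.264 to 0.567). Genes of tanycytes, the glia that line the third ventricle, gave r = 0.641 for Vim, 0.53 for Dio2, 0.383 for Col23a1 and 0.375 for Rax. The 4 ventromedial markers gave r from 0.135 to 0.416. The highest was that of Sox14, which is on the arcuate list too, and the next was that of Fezf1 at 0.283. The 3 pituitary markers gave r from 0.025 (Tshb) to 0.589 (Cga), the 3 neuronal markers from 0.208 to 0.377 and the 3 oligodendrocyte markers from −0.107 to 0.15. Npy had r from −0.287 to 0.053 with the 3 paraventricular markers, from −0.222 to −0.007 with the 2 muscle markers, from −0.237 to 0.225 with the 5 dorsomedial and lateral markers and from −0.285 to −0.264 with the 4 globin genes of blood. With the log2 library total, r was 0.41 for Npy, 0.44 for Agrp, 0.00 for Pomc, 0.07 for Cartpt and 0.48 for Npy1r. The part of these cells and regions in the shared differences was not tested. Genes most like Npy after Agrp were Gpc3 (r = 0.835) and Cited1 (r = 0.783), after Npy for Agrp they were Gpc3 (r = 0.757) and Maged2 (r = 0.756), and Crabp1 led the list for Pomc (r = 0.694). For Cartpt the list was Pomc, Dad1 (r = 0.549) and Tmem201 (r = 0.546).

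**Figure D4:**
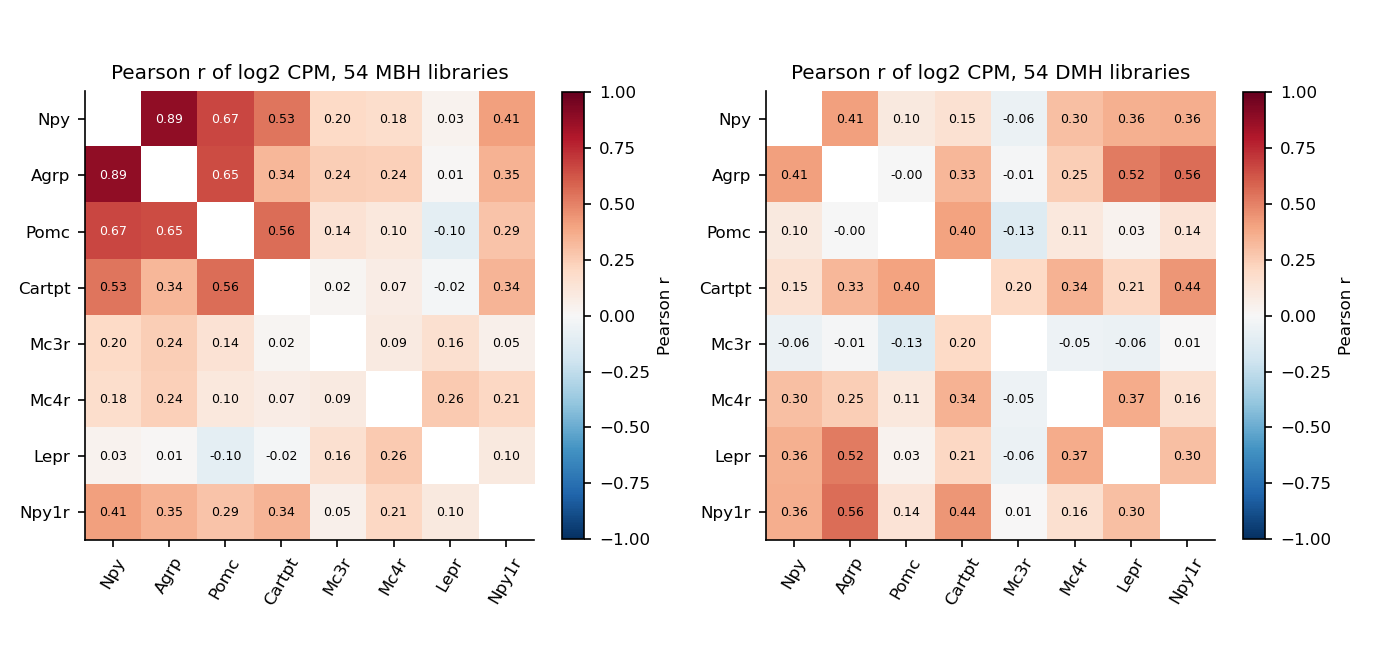
Pearson's r of log2 CPM for the 28 pairs of the 8 genes over the 54 libraries of the mediobasal hypothalamus (left) and of the dorsomedial hypothalamus (right). In the MBH the peptides form a block that reaches 0.89 for Npy and Agrp, and Mc3r, Mc4r and Lepr reach at most 0.258 with any gene; in the DMH Npy and Agrp stand at 0.41.

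In the DMH, the same peptides were rare and each library held few counts. Npy was read in 15 of 54 libraries with 100 counts in all, Agrp in 12 with 69, Pomc in 34 with 698 and Cartpt in 38 with 2332. Mc3r, Mc4r and Lepr were each read in 4 libraries, and Npy1r in 11. No Npy or Agrp count fell in any library at 8 or 32 weeks, which allows up to 0.19 CPM and 0.524 CPM over the group (3 counts; counting error only).

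Over the 9 groups, 1 of the 8 genes, Npy, passed in the DMH (FDR = 0.0806, edgeR), against 4.62% of all 21821 gene symbols. That call rests on a single LP library: replicate 1 held 59 of the 60 LP counts of Npy (6.41 CPM), while the other 5 LP animals lay between 0 and 0.0726 CPM. Without this library the FDR was 0.337, and without replicate 1, 3, 4 or 6 of every group it was 0.403, 0.189, 0.2 and 0.22, while without replicate 2 or 5 it was 0.0729 and 0.0395. For the phases, Npy in induction was at −3.66 ± 0.968 on the log2 scale (FDR = 0.0903) and Agrp at −3.29 ± 0.864 (FDR = 0.0902, edgeR), the only 2 calls, against 0.669% of all genes in induction (0.664% called lower), 0.898% in maintenance, 0.293% in recovery and 0% in recovery against maintenance. The median log2 difference of all genes was −0.17 in induction. Without the LP library with most Npy, the log2 differences of Npy turned to 0.70, 1.54 and 0.98 in the 3 phases, and neither gene was called. No gene of the 8 was called with edgeR 4's quasi-likelihood test or with DESeq2, which gave Npy no adjusted p, and Npy and Agrp were too low to be tested under filterByExpr. Of all genes, too, these alternatives called far fewer over the 9 groups, so the share of 4.62% depends on the test.

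Pomc in the DMH ranged from 1.32 CPM at 28 weeks to 6.76 CPM at 12 weeks, with 2.21 CPM in LP, and Cartpt from 1.38 CPM at 20 weeks to 7.29 CPM at 8 weeks, with 12.5 ± 14.5 CPM in LP (SD, n = 6). The LP animals of Cartpt reached from 0 to 38.7 CPM and overlapped every SP group. Of 64 comparisons of a gene and a week with LP, 1 had an exact permutation p below 0.05, against 2.5% over all genes, and it was Cartpt at 20 weeks (p = 0.0346).

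Npy and Agrp gave r = 0.412 and rho = 0.514 over the DMH libraries (permutation p = 0.0109 and, adjusted over 28 pairs, 0.051), and r = 0.27 without the 2 libraries farthest from the median of Npy. The 5 pairs that passed in the DMH joined Agrp to Npy1r (r = 0.556) and Lepr (r = 0.518), and Cartpt to Npy1r (r = 0.443), Pomc (r = 0.403) and Mc4r (r = 0.344). Agrp and Npy1r, Cartpt and Npy1r, and Pomc and Cartpt had passed in the MBH too. With 4 libraries behind Lepr and Mc4r and 11 behind Npy1r, these values describe single libraries. Genes most like the DMH peptides were Lamp3 for Npy (r = 0.529), Cyp46a1 for Agrp (r = 0.647), Prkag1 for Pomc (r = 0.638) and Amph for Cartpt (r = 0.749), and no peptide was among the first 3 for another.

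All 8 genes were higher on average in the MBH than in the DMH of the same 54 animals. In a joint fit with the animal as a block, 8 of 8 passed the FDR as higher in the MBH, against 39.7% of the 17760 gene symbols in both tables (42.6% called in either direction). The median log2 difference of all genes was itself 0.58, and each of the 8 differences lay above it. On the scale shared by both tissues, Npy was at a median of 43.9 CPM in the MBH (range 0 to 133 CPM) and of 0 CPM in the DMH (highest 17.1 CPM). It was higher in the MBH in 52 of 54 animals and at 0 in both tissues in the other 2. The fitted difference was 6.79 on the log2 scale (95% interval 6.15 to 7.44; FDR = 2.77e-28, edgeR).

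Agrp followed with 5.45 (4.81 to 6.08), higher in the MBH in 53 animals. Pomc was at 3.23 (2.57 to 3.90) and Cartpt at 2.45 (1.83 to 3.06), higher in the MBH in 51 and 47 animals and in the DMH in 3 and 7. For Cartpt the DMH reached 96.4 CPM and the MBH 125 CPM, so the tissues overlapped. Npy1r stood at 3.97 (3.23 to 4.71), higher in the MBH in 44 animals. The differences of Lepr (2.50), Mc3r (1.90) and Mc4r (1.42, FDR = 0.0269) each rest on 4 DMH libraries with any count. Lepr, Mc3r and Mc4r were higher in the MBH in 28, 33 and 25 animals and in the DMH in 2, 2 and 4. They were at 0 in both tissues in 24, 19 and 25 animals. Under filterByExpr 3 of the 8 genes did not reach the count minimum and 5 of 5 were called, and edgeR 4's test called 7 of 8. The summed neuronal markers also differed, with a median of 409 CPM in the MBH and 62.1 CPM in the DMH, each on its own tissue's scale, and their part in the result was not tested. Whether the change over the groups differs between tissues was tested by an interaction, which 0 of 8 genes passed (FDR = 1 for all), against 0.608% of all genes.

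**Figure D5:**
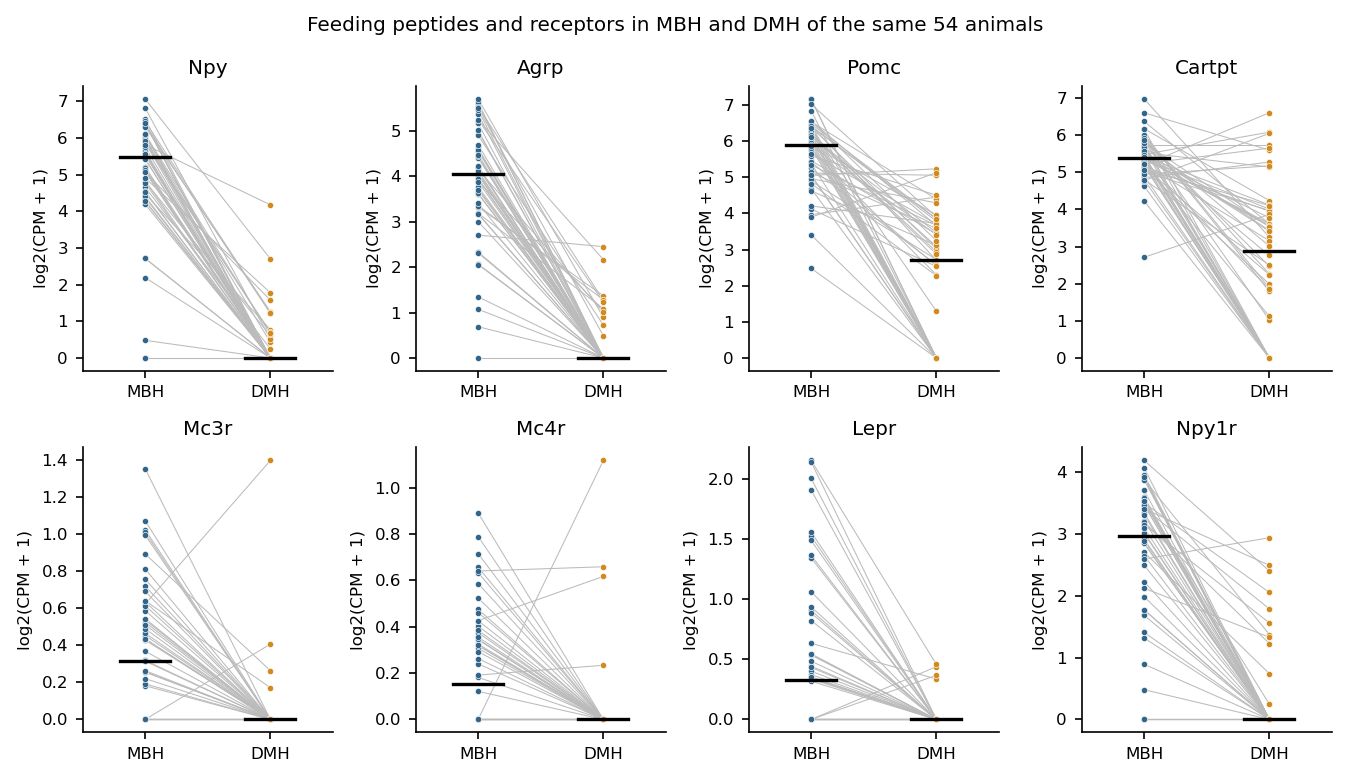
Level of the 8 genes in the MBH and DMH of the same 54 hamsters as log2(CPM + 1), scaled over both tissues; each line is an animal and the black bar is the median. For Npy and Agrp no line rises from MBH to DMH, whereas 3 lines rise for Pomc and 7 for Cartpt.

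In the PVN, where the counts refer to other transcript identifiers and were not set against the other tissues, none of the 8 genes passed over the 9 groups (0 of 8, against 0.0158% of all 18960 gene symbols; 1166 genes had an unadjusted p below 0.05). Cartpt, which PVN neurons also make, was read in 51 of 54 libraries. It ran from 55.9 to 413 CPM in LP (median 192 CPM), and SP means lay between 121 CPM at 16 weeks and 443 CPM at 24 weeks. Npy had 107 counts in all (LP mean 9.41 CPM, SP means 5.92 to 20.4 CPM), Agrp 129 (LP mean 8.35 CPM, SP means 5.91 to 17.6 CPM) and Pomc 262 (LP mean 14.3 CPM, SP means 8.26 to 26.9 CPM). All SP groups overlapped LP for these peptides. The values describe the whole punch, in which markers of neighbouring nuclei were read too.

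The smallest p in the PVN was that of Npy1r, 0.000664 (edgeR, FDR = 0.248), on 51 counts. In LP it was read in 1 of 6 libraries (mean 0.206 CPM), and at 4, 8 and 12 weeks in 4 of 6 each, with means of 7.60, 5.19 and 7.09 CPM. In 1 LP library the summed neuronal markers stood at 0 CPM (LP median 618 CPM), so a gene could go unread there. At 16 weeks Npy1r had 0 counts, which allows up to 4.05 CPM over the group. Mc4r, read in 22 libraries, had 0.619 CPM in LP and 2.23 to 4.95 CPM in the SP groups, with 42 counts in all. Of the 64 comparisons of a gene and a week with LP, 0 had an exact permutation p below 0.05, against 2.73% over all genes.

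In the pituitary, Pomc is the precursor of corticotropin and alpha-MSH in its own endocrine cells. It was read in every library, at 6450, 9220 and 17500 CPM in LP (lowest, median and highest) and with a mean of 10600 ± 4140 CPM (SD, n = 6). SP means ran from 8390 CPM at 12 weeks to 16900 CPM at 32 weeks, and all groups overlapped. Over the 9 groups, 0 of 6 genes passed, against 9.56% of all 22482 gene symbols, and Pomc had FDR = 0.475 in edgeR. The share of all genes includes genes read in a single library (Mrap2, FDR = 0.0278, edgeR). Far fewer genes were called with filterByExpr or DESeq2, so the share is no firm measure of change in this tissue. With the replicate number as a block Pomc did pass (FDR = 0.00217, edgeR). In that fit the gene-wise test had 899000 degrees of freedom, against 66.3 without the block. No label ties the replicate numbers to a batch, though most pituitary libraries were most like a library of their own number. For Pomc at 16 weeks the animals stood between 12600 and 18500 CPM (exact permutation p = 0.0433). Npy had 131 counts over 41 libraries, with 13.8 CPM in LP and 35.1 ± 14.3 CPM at 12 weeks (exact permutation p = 0.0368). These were 2 of 48 comparisons of a gene and a week with a p below 0.05, against 1.13% over all genes. Agrp and Npy1r were read in 1 pituitary library each, Lepr in 3 and Cartpt in 5.

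Other genes of the pathway were read from a list of 55, which held the enzymes that cut and amidate the peptides, further melanocortin and Npy receptors, accessory and downstream proteins, hormone receptors with leptin signalling, transcription factors of arcuate neurons, co-transmitters and other arcuate products. In the MBH, 1 of 53 passed over the 9 groups, against 0.442% of all genes, and 5 had an unadjusted p below 0.05. It was Nmu, neuromedin U, an anorexigenic peptide, read in 15 libraries. Its mean was 2.72 CPM in LP (highest 6.37 CPM), 1.83 CPM at 4 weeks and 0 to 0.303 CPM from 8 weeks on. It was lower than in LP in maintenance (log2 difference −3.88 ± 0.737, FDR = 0.0148, edgeR) and recovery (−4.78 ± 0.748, FDR = 0.00114). DESeq2 called it in neither phase (adjusted p = 1), and without replicate 2, 5 or 6 of every group the FDR for maintenance was 0.15, 0.154 and 0.155. None of the 6 processing enzymes, of the 5 other receptors or of the 14 genes of hormone receptors and leptin signalling passed in any phase.

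In the DMH 1 of 50 passed, against 4.62% of all genes: Npy5r, a receptor of Npy, read in 5 libraries. It was lower in SP in maintenance (−3.49 ± 0.935, FDR = 0.0897, edgeR) and recovery (−4.65 ± 0.989, FDR = 0.0439). Without replicate 6 of every group these differences were 0.12 and −1.39, and neither was called; without replicate 3 or 4, with the highest isoform, with edgeR 4's test and with DESeq2 both calls were lost too. In the PVN 0 of 47 passed, against 0.0158% of all genes. In the pituitary 4 of 43 passed, Bdnf, Mrap2, Adcy3 and Insr, read in 9, 1, 6 and 16 libraries, at 9.56% of all genes called.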

How the data were processed

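Nanopore cDNA libraries of 4 tissues from 54 hamsters were sequenced by the study. The authors trimmed the reads, aligned them to mouse transcripts with minimap2 quantified isoforms with Salmon and removed isoforms of low expression with edgeR, and the deposited tables hold expected counts per isoform, not normalized. The PVN table uses other transcript identifiers, and no source used here names their annotation. The labels and the study's methods differ on the pituitary library kit. Between 97.6 and 99.6% of the deposited values were whole numbers.

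Isoforms were summed by gene symbol and rounded. The 8 genes and all lists were chosen with earlier results of these data known. Tests used the edgeR 3 form of the quasi-likelihood F-test in edgeR 4.0.16 (R 4.3.3) with TMM scaling and 9 groups, FDR below 0.1 over all gene symbols and no further filter on low counts. Phase and week contrasts came from the same fit. In the joint fit of MBH and DMH, with the animal as a block, the trended dispersion was estimated on every 10th gene by abundance. Week differences were also tested by exact permutation of mean CPM (924 splits, two-sided). Correlations used log2 CPM with a prior count of 2 and 100000 permutations in Python 3.11.15 (numpy 2.4.6). Scripts were tested on simulated data. Genes named beside the 8 were the 3 most correlated with each peptide, listed pathway genes past the FDR, and marker genes. The result of a further marker list is not reported here. Replicates are separate hamsters. No reference sequence was used here. Alternatives were DESeq2 1.42.0 and its size factors, filterByExpr, edgeR 4's own test, the replicate number as a block, the highest isoform, a stricter FDR, and leaving out libraries or the most abundant gene.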

Additional observations from a re-analysis of the deposited data

Results flagged for a closer look

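Among genes read in at least 27 libraries of a tissue, in 17 of 144 groups of 6 animals (11.8%) the gap between the highest or lowest animal and its nearest neighbour passed the 95% critical value of Dixon's test. For normally distributed values, chance passes it in about 1 group in 20. CPM with many values of 0 are not so distributed, so no excess over chance can be read from the 11.8%. The flagged groups were 5 in the MBH, 8 in the DMH, 4 in the PVN and 0 in the pituitary, and in sparse genes the flag can rest on a few counts.

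In the MBH, Pomc reached 332.6 CPM in replicate 1 at 32 weeks, against 142 CPM in the next animal; this library was also among the 6 with most Npy. The others there were receptors at few counts: Mc3r at 0.788 CPM in replicate 6 at 20 weeks (4 counts), Mc4r at 0.904 CPM in replicate 4 at 24 weeks (2 counts), and Lepr at 6.14 CPM in replicate 3 at 8 weeks (9 counts) and 4.13 CPM in replicate 5 at 12 weeks (11 counts).

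In the DMH, Cartpt stood apart in 5 SP groups. It was at 27.4 CPM in replicate 2 at 8 weeks, 13.5 CPM in replicate 4 at 12 weeks, 18.5 CPM in replicate 3 at 16 weeks, 25.5 CPM in replicate 2 at 24 weeks and 14.4 CPM in replicate 3 at 28 weeks, while the next animal of each group was at 3.21 to 6.65 CPM. Pomc was at 7.67 CPM in LP replicate 5, 14.8 CPM in replicate 3 at 4 weeks and 14.1 CPM in replicate 2 at 32 weeks, the only library of that group with Pomc counts.

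In the PVN, Npy was at 22.5 CPM in replicate 1 at 16 weeks (1 count), Agrp at 40.7 CPM in replicate 4 at 4 weeks (4 counts) and Pomc at 52.1 CPM in replicate 4 at 32 weeks (8 counts). Cartpt was low, at 15.6 CPM, in replicate 4 at 20 weeks, against 189 CPM in the next animal. No interaction of tissue and group passed for the 8 genes.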

How the results depend on the processing

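The absence of calls in the MBH held under every alternative but the highest isoform, where 2 genes (Pomc and Cartpt) passed over the 9 groups, 1 in the phases (Pomc in induction) and 1 in the weeks (Pomc at 12 weeks). That alternative gave 2 calls in the PVN (Cartpt and Npy1r) and 1 in the DMH weeks (Npy at 8 weeks). It gave 3 in the DMH phases (Npy in each phase, FDR = 0.00329, 0.00308 and 0.012), and Agrp was lost. With the highest isoform the gene-wise test had 853000 degrees of freedom in the PVN, against 65.8 with summed isoforms, and 144 against 58.1 in the DMH. In the DMH the call over the 9 groups (1) and the phase calls (2) went to 0 and 0 at FDR below 0.05, with filterByExpr (Npy and Agrp not tested), with edgeR 4's quasi-likelihood test, with the DESeq2 test, with the replicate block and without the LP library with most Npy, an alternative chosen after seeing the data, and the phase calls to 1 with DESeq2 size factors. Leaving out each replicate number in turn gave 0 to 1 calls over the groups and 0 to 1 in the phases. The replicate block gave 1 call in the pituitary (Pomc, FDR = 0.00217, with 899000 degrees of freedom against 66.3). No label ties the replicate numbers of different groups to a shared batch. By the data alone, pairs of libraries with the same number correlated above 0.1 in 51 cases in the MBH, 93 in the DMH, 32 in the PVN and 75 in the pituitary. Most such pairs did not. In these tissues 31, 21, 30 and 42 of 54 libraries were most like a library of their own number. The mean correlation was positive for pairs of the same number and negative for other pairs in every tissue. The number expected by chance was not computed. Libraries of the same number were thus more alike on average, which is seen in the data and not in the design, and the source was not tested. The block changed no other count of the 8 genes named here. Between MBH and DMH, 5 genes were called with filterByExpr, which tested 5, and 7 to 8 when a replicate number was left out. Pairs that correlated in the MBH numbered 5 to 10 (8 with all animals) when a replicate number was left out, and 6 without the 6 libraries with least Npy, also chosen after seeing the data. In the DMH they numbered 0 on CPM without logarithm and with the highest isoform, 8 within groups and with DESeq2 size factors, and 3 to 7 without a replicate number.

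Directions turned only for differences near 0 or carried by 1 library, and the cause was not tested beyond that. Npy in the MBH was at −0.01 (filterByExpr), 0.0 (replicate block), −0.09, −0.04 and −0.06 (without replicate 1, 3 or 4) in maintenance, and at −0.05, −0.05 and −0.11 (without replicate 1, 2 or 4) in recovery. Agrp in recovery was at 0.07 and 0.30 without replicate 5 or 6. Npy in the DMH was at 0.79, 1.20 and 0.84 in the 3 phases without replicate 1, and at 0.70, 1.54 and 0.98 without the LP library with most Npy. Npy5r in the DMH in maintenance was at 0.12 without replicate 6. Over all replicate numbers left out, the other end of the range was 0.14 and 0.39 for Npy in the MBH in maintenance and recovery, −0.41 for Agrp in recovery, −4.37, −3.68 and −4.08 for Npy in the DMH and −4.59 for Npy5r. Of 1092 alternatives for 76 single genes and pairs, 993 kept direction and side of the threshold. Numbers of all genes called varied widely: over the 9 groups, 4 (filterByExpr), 12 (DESeq2) and 71 (edgeR 4) in the MBH against 89, and 9, 1 and 34 in the DMH against 1008. The replicate block gave 22 in the MBH, 227 in the DMH and 75 in the PVN (3 without it), FDR below 0.05 gave 43 and 409 in the MBH and DMH, and the highest isoform gave 32 in the DMH and 33 in the pituitary, where filterByExpr gave 6 and DESeq2 1 against 2149. For the interaction, filterByExpr gave 0 and edgeR 4 gave 1 of all genes. DESeq2 was not run for the weeks, and no DMH or pituitary library fell under 10000 counts.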
